A study of Gallus gallus with 8 samples.

Results

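The genes described here code for the ligands, receptors, SMAD proteins and extracellular antagonists of the TGF-beta, activin and BMP pathways. The 4 ID genes, targets of the BMP SMADs in mammals, are described with them. They were chosen by gene name, with BMP6 and genes of the W chromosome left out. Of the 20170 genes with a value in the authors' deposited table of broiler liver, 52 met the rule. One more row, GDF5, matched by name but was listed at 0 and had no result, and the weakest member inside that limit was GDF8, with a group mean of 0.00742. The chickens (Gallus gallus), labelled male, were raised at a low density, aimed at 24.4 kg/m2 (5 lb/ft2) by the end, or at a high density, aimed at 39.1 kg/m2 (8 lb/ft2). Livers of both groups were taken on day 46, and RNA was sequenced from 4 libraries per group, each holding equal amounts of RNA from 4 birds, so that a group stands for 16 birds whose individual values are not resolved. The labels call the low density Treatment A and the high density Treatment D, and they give no strain and no agent. The comparison asks whether these signalling genes differ between livers of crowded and uncrowded birds.

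Ligands of this family are secreted dimers that bring together type I and type II receptor kinases on the surface of the target cell. The receptors phosphorylate SMAD2 and SMAD3 after TGF-beta or activin, and SMAD1, SMAD5 and SMAD9 after BMP, and the SMADs then enter the nucleus and switch genes on or off. Antagonists such as follistatin, noggin and chordin bind the ligands outside the cell, and SMAD6 blocks the signal inside it. In the liver of mammals these pathways act in fibrosis, in iron balance and in the control of hepatocyte growth, and several activin subunits are made mainly by hepatocytes.

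Levels are given as RPKM, the reads of a gene scaled to its length and to the counted reads of the library, so that they can be set side by side between genes. The deposited table gives the mean of the higher group and a log2 fold change, positive where the high density was higher, and the mean of the lower group is the one implied by these 2 values. Near a log2 fold change of 0 the sign need not name the group with the higher mean: the deposited mean of TGFB2 (-0.02) was recovered from the high density libraries and that of GDF8 (0.03) from a low density one. The library totals recovered from the table lay between 26151624 and 39772288 counted reads, and a group mean of 1 RPKM stood for 136 reads per kilobase over the 4 low density libraries and 132 over the 4 high density ones. A standard error (SE) is the one implied by the deposited fold change and p-value. For 23 members the values of the 4 libraries of the higher group were recovered as well, 12 at high and 11 at low density, and these are listed from the library with the most counted reads to that with the fewest (library 1 to library 4), since they cannot be tied to replicate numbers. The libraries of the lower group were not recovered, so their spread is not known. Where the libraries of the higher group lie beside the implied mean of the lower group therefore takes in the spread of the higher group only. No source says that the birds of different libraries came from different pens, so the p-values measure the spread between these pools.

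Some of the libraries went against their label. Of 26 W chromosome genes whose high density libraries were recovered, 17 had at least 20 reads in libraries 1 and 3 together and at most 5 in libraries 2 and 4 together, and the sums were 1947 reads against 9. The W chromosome is carried by hens, and the label of every library is male. SPIN1W, a W chromosome gene, had 286, 3, 151 and 0 reads in high density libraries 1 to 4. Its mean was 0.689 RPKM at high density against an implied 0.515 at low density, so the deposited fold change implies W reads at low density too. The log2 fold change of SPIN1W, 0.42, was the smallest of those 17 genes, whose median was 1.04 and largest 2.77. All 12 W chromosome genes with a mean of at least 0.5 RPKM were higher at high density. None of them passed an adjusted p of 0.05 in the authors' deposited table, and 1 passed an unadjusted p of 0.05. Their median log2 fold change was 0.94, with a median SE of 1.12. These 12 genes summed to 43.6 RPKM at high against 22.6 at low density. The part of this difference in the values of the members was not tested. The deposited fold changes cannot be computed again without these libraries, so the members called are given with all 4 libraries per group. Among the 12 members with recovered high density values, leaving out libraries 1 and 3 moved the high density mean by over 1.5 times in GDF6 (0.0810 to 0.0478 RPKM) and NOG (0.0958 to 0.0629 RPKM), which rest on 14 and 18 reads.

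One of the 52 members passed the adjusted p threshold of 0.05 in the authors' deposited table, the ligand subunit INHBE, which was higher at high density. Over all genes with a value, 0.273% passed, and 0.159% passed as higher. At an unadjusted p under 0.05, 6 members passed, 2 higher and 4 lower. The shares over all genes were 5.58% in either direction, 2.46% higher and 3.12% lower. By sign alone 21 members were higher and 31 lower at high density, with a median log2 fold change of -0.05, beside 49.7% of all genes lower and a median of 0.00. Of the 35 members with a group mean of at least 1 RPKM, 24 were lower and the median was -0.10, beside 52.2% lower and a median of -0.01 among the 10867 genes of that level.

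**Figure D1:**
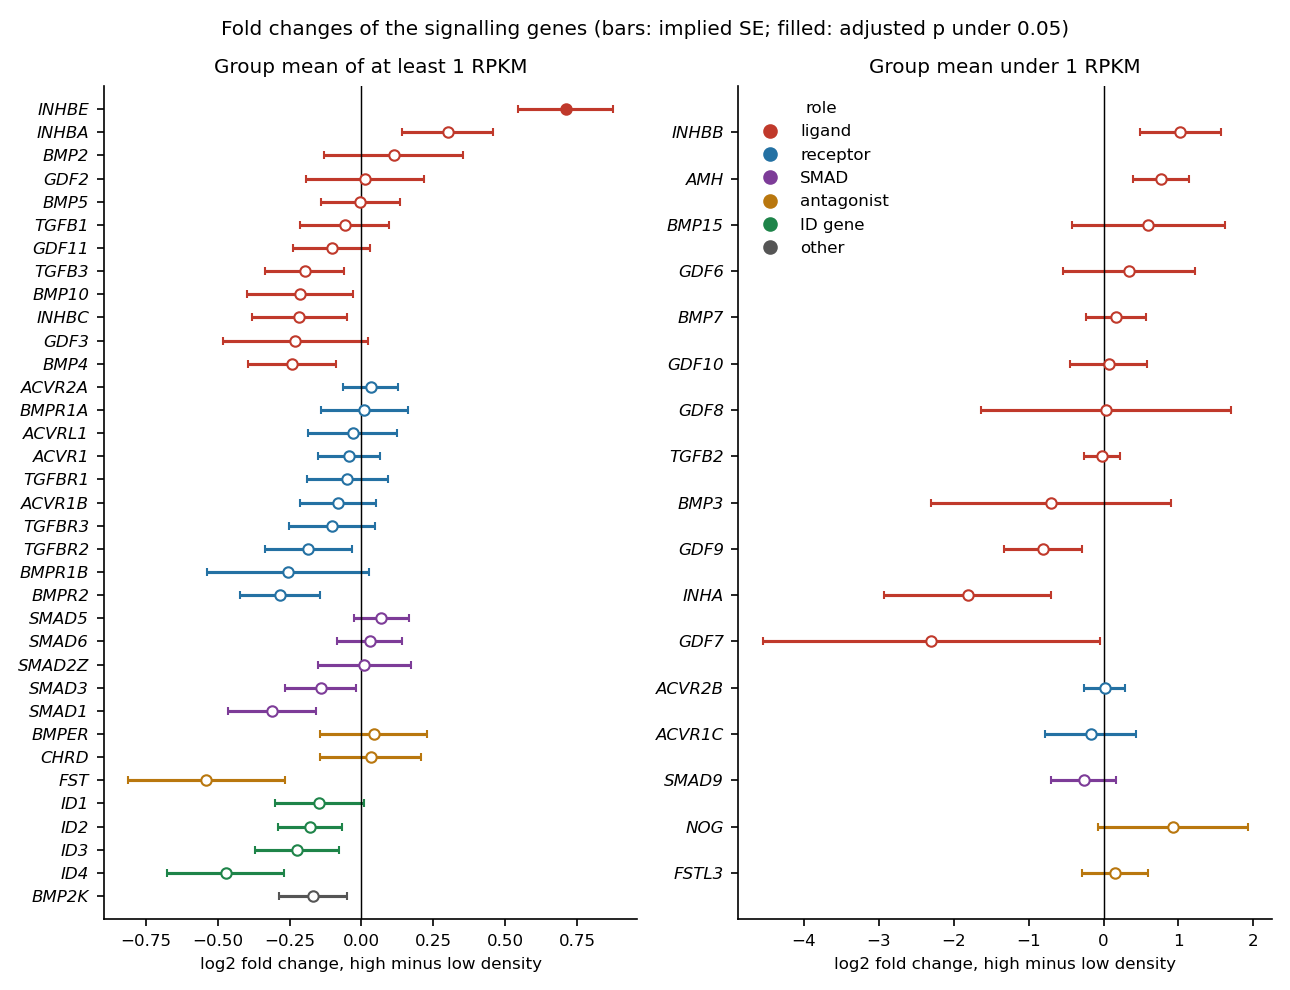
Log2 fold change of each of the 52 members (x axis, high minus low density; y axis, genes coloured by role), with bars for the implied SE, for 35 members with a group mean of at least 1 RPKM (left) and 17 below it (right, wider axis). INHBE, at 0.71, has the one filled point, for an adjusted p under 0.05.

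INHBE codes for the activin beta E subunit, a protein that the liver of mammals releases into the blood. The gene lies on chromosome 33 of build GRCg6a, minus strand, at chr33:5563234-5566047. Its mean was 47.9 RPKM at high density and an implied 29.2 RPKM at low density. The authors' deposited table gives it a log2 fold change of 0.71 (implied SE 0.16, 95% interval 0.39 to 1.03), which is 1.64-fold, with a p of 1.6e-05 and an adjusted p of 0.0137. It ranked 25 by p among all genes with a value. Among the members only INHBC and ID3 had higher levels, and the change of INHBE exceeded the spread between the pooled libraries by that test. The libraries of INHBE could not be recovered one by one, so the part of the libraries with W chromosome reads in its value was not tested.

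The neighbours of INHBE on chromosome 33 had values in both directions. INHBC, which codes for the activin beta C subunit and lies 4510 bases away on the same strand (chr33:5570558-5572761), had the highest level of all members, 105 RPKM at low density and an implied 90.1 at high density. Its log2 fold change was -0.22 (SE 0.17, p = 0.194, adjusted p = 1.00) in the authors' deposited table. GDF11, a ligand related to myostatin 55564 bases away, had means of 8.26 and an implied 7.69 RPKM at low and high density (log2 fold change -0.10, SE 0.13). GLI1, a transcription factor of the hedgehog pathway that is no member and was looked at after its values were seen, lies 10219 bases from INHBE on the same strand. It was higher at high density, by 0.68 on the log2 scale (SE 0.16, adjusted p = 0.0214 by the authors' deposited table), and its mean was 4.28 RPKM. Other genes near INHBE that are no members were not called. SARNP had a log2 fold change of -0.13 and ORMDL2 one of 0.01. Unnamed genes with a value 2508, 20822 and 21234 bases from INHBE had -0.34, 0.09 and 0.01. STAC3 (2.13) and an unnamed gene 58951 bases away (3.19) were weak, at 0.131 and 0.0202 RPKM at high density.

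The other activin and inhibin subunits gave no call. INHBA, the beta A subunit of activin A, was at 9.82 RPKM at high density and an implied 7.97 at low density, a log2 fold change of 0.30 (SE 0.16, p = 0.0569) in the authors' deposited table. The gene model of INHBA overlaps another on the other strand, as do those of BMP7, SMAD3 and BMPER. The part of such overlaps in their reads was not tested. INHBB, the beta B subunit, was at 0.170, 0.241, 0.191 and 0.536 RPKM in high density libraries 1 to 4, from 73 reads, against an implied low density mean of 0.140. All 4 libraries lay above that mean, but library 4 stood well over the others, and the log2 fold change of 1.03 (SE 0.54, p = 0.0557 by the authors' deposited table) did not pass either threshold. The high density mean of INHBB was 0.284 ± 0.170 RPKM (SD, n = 4) with all libraries and 0.388 without libraries 1 and 3. INHA, the inhibin alpha subunit, was weak, with 10, 0, 2 and 5 reads in low density libraries 1 to 4. Its implied high density mean was 0.0145 RPKM. The log2 fold change of -1.82 (SE 1.11, p = 0.103 by the authors' deposited table) passed neither threshold.

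Of the 3 TGF-beta ligands, which in mammals drive scar formation by stellate cells, none passed either threshold. TGFB1 had 11.6 RPKM at low and an implied 11.2 at high density (log2 fold change -0.06, SE 0.15, adjusted p = 1.00 by the authors' deposited table), but its gene model overlaps 6 other models on its strand and 3 on the other, so its reads are uncertain. TGFB3 had 7.69 RPKM at low density and a log2 fold change of -0.20 (SE 0.14). TGFB2 was weaker, at 0.781, 0.437, 0.677 and 0.987 RPKM in high density libraries 1 to 4, and its deposited log2 fold change was -0.02 (SE 0.24). Its libraries differed more from each other than the groups did.

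The BMP ligands among the members, which leave out BMP6, also showed no call. BMP4, a ligand of the BMP2 and BMP4 pair, was the strongest of them at 10.6 RPKM at low and an implied 8.96 at high density (log2 fold change -0.24, SE 0.15). BMP2 was at 1.69, 1.29, 1.35 and 1.34 RPKM in high density libraries 1 to 4 (log2 fold change 0.11, SE 0.24). Library 1 stood above the other libraries of BMP2, which lay from 1.29 to 1.35 RPKM. BMP5 was even between the groups at 6.06 RPKM, with a log2 fold change of 0.00 (SE 0.14). BMP10 had a mean of 2.37 RPKM at low density and a log2 fold change of -0.21 (SE 0.18). GDF2, known as BMP9, is made in the liver of mammals and, like BMP10, signals to endothelial cells. It was at 1.62, 2.17, 2.19 and 1.98 RPKM in high density libraries 1 to 4, with a log2 fold change of 0.01 (SE 0.21). BMP7 was at 0.461, 0.290, 0.434 and 0.630 RPKM in the same libraries, with a log2 fold change of 0.16 (SE 0.40).

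AMH (chr28:2107519-2111709, minus strand), the anti-Mullerian hormone made by the gonads, passed an unadjusted p of 0.05. It was at 0.374, 0.363, 0.430 and 0.393 RPKM in high density libraries 1 to 4, from 145 reads, a mean of 0.390 ± 0.0293 (SD, n = 4), against an implied low density mean of 0.229. All 4 libraries lay above that mean and close to each other. The high density mean without libraries 1 and 3 was 0.378 RPKM, but the low density mean still takes in any libraries with W reads. The log2 fold change was 0.77 (SE 0.38, p = 0.0413, adjusted p = 1.00 by the authors' deposited table).

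The growth and differentiation factors were weak or even. GDF3 was at 1.60, 2.82, 1.73 and 2.31 RPKM in low density libraries 1 to 4, and its implied high density mean of 1.81 lay inside that range (log2 fold change -0.23). GDF9, best known as a factor of the oocyte in mammals, was at 0.371, 0.181, 0.289 and 0.415 RPKM in the same libraries, with an implied 0.180 at high density (log2 fold change -0.80, SE 0.52, p = 0.123 by the authors' deposited table). GDF10, which lies 5536 bases from GDF2 on chromosome 6, was at 0.222, 0.488, 0.356 and 0.583 RPKM in high density libraries 1 to 4 (log2 fold change 0.07). Both libraries with W reads lay below both libraries without them, and the mean without libraries 1 and 3 was 0.536 RPKM against 0.413 with them. The same order was seen in INHBB and FSTL3, and the reverse order in BMP2 and GDF6. These were found among the 12 members with recovered high density values, and in the rest the libraries with and without W reads overlapped. With so few libraries of each kind, a complete separation in one direction or the other is common by chance. The part of the W reads in these orders was not tested. A further 5 ligands rested on fewer than 20 reads in their higher group. GDF6 had 14 reads (deposited log2 fold change 0.34) and BMP15, a partner of GDF9 in mammals, had 9 (0.60). GDF7 (-2.30), BMP3 (-0.70) and GDF8, the gene of myostatin (0.03), had 2, 2 and 1 reads, at or under the 3 reads taken as the limit of detection, so that no fold can be read from them.

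None of the 12 receptors was called. The strongest were ACVR2A, a type II receptor for activins, at 10.5 RPKM at high and an implied 10.2 at low density (log2 fold change 0.03, SE 0.10), ACVR1B at 10.2 and 9.67 at low and high density (-0.08, SE 0.13) and TGFBR1 at 10.1 and 9.72 (-0.05, SE 0.14). The last of these are the main type I receptors for activin and for TGF-beta. Adjusted p was 1.00 for each in the authors' deposited table. BMPR2 (chr7:11821550-11916693, plus strand), the type II receptor that most BMP ligands use, was the one receptor with an unadjusted p under 0.05. Its mean was 6.72 RPKM at low and an implied 5.52 at high density, a log2 fold change of -0.28 (SE 0.14, p = 0.0416, adjusted p = 1.00 by the authors' deposited table). TGFBR2, the type II receptor for TGF-beta, had a log2 fold change of -0.18 and TGFBR3, its coreceptor betaglycan, one of -0.10.

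Of the 7 type I receptors, 6 were lower at high density and BMPR1A was higher by 0.01 on the log2 scale, and none of the 7 lay more than 1 SE from 0. ACVR1 had a log2 fold change of -0.04 and ACVRL1, the receptor through which GDF2 and BMP10 act on endothelium, one of -0.03, from 6.08 RPKM at low density. BMPR1B was at 1.72, 1.06, 1.37 and 1.14 RPKM in low density libraries 1 to 4 (log2 fold change -0.26, SE 0.28), and its implied high density mean of 1.11 fell inside that range. ACVR1C, a receptor for activin E in mammals and known there from fat tissue, was weak here, at 0.230, 0.119, 0.139 and 0.0407 RPKM in the same libraries, from 31 reads (log2 fold change -0.17, SE 0.61). ACVR2B was at 0.943, 0.788, 0.651 and 1.02 RPKM in high density libraries 1 to 4, with a log2 fold change of 0.02. Over all 12 receptors 3 were higher and 9 lower, and the median log2 fold change was -0.07.

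**Figure D2:**
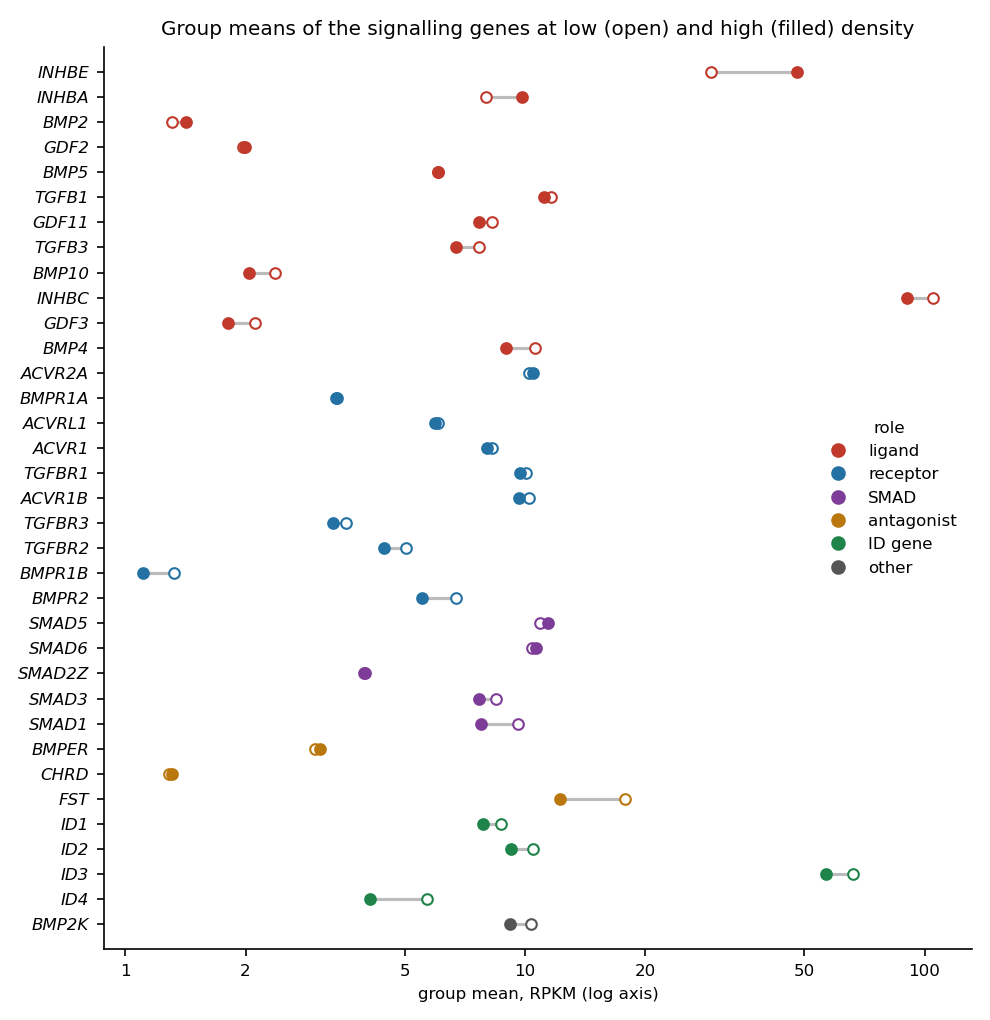
Group mean of the 35 members with at least 1 RPKM (x axis, RPKM on a log axis; y axis, genes coloured by role) at low density (open) and high density (filled), the lower one implied by the fold change. INHBC at 105, ID3 at 66.1 and INHBE at 47.9 RPKM lie to the right of the others, and INHBE has the longest distance between its points.

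Of the 6 SMAD genes 3 were higher and 3 lower, and none was called. SMAD1 (chr4:31116058-31162776, plus strand), which carries the BMP signal, had the largest difference among them, 9.62 RPKM at low and an implied 7.75 at high density (log2 fold change -0.31, SE 0.15, p = 0.0423, adjusted p = 1.00 by the authors' deposited table). Its partners of the same branch had smaller or less certain differences. SMAD5 was at 11.4 RPKM at high and an implied 10.9 at low density (log2 fold change 0.07, SE 0.10), with an interval of -0.12 to 0.26. SMAD9 was weak, at 0.440, 0.487, 0.452 and 0.728 RPKM in low density libraries 1 to 4 (log2 fold change -0.27, SE 0.43). In the branch of TGF-beta and activin, SMAD3 had a log2 fold change of -0.14 (SE 0.12) and SMAD2Z, the SMAD2 gene of the Z chromosome, one of 0.01 (SE 0.16). SMAD6, the inhibitory SMAD that BMP signals switch on, was at 10.6 RPKM at high and an implied 10.4 at low density (log2 fold change 0.03, SE 0.11). SMAD4 and SMAD7 were not analysed here.

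Among the 5 antagonists, follistatin (FST) alone passed an unadjusted p of 0.05, and none was called. FST (chrZ:16072541-16079179, plus strand) binds activins and holds them away from their receptors. Its mean was 17.8 RPKM at low and an implied 12.2 at high density, a log2 fold change of -0.54 (SE 0.27, 95% interval -1.07 to -0.01, p = 0.0473, adjusted p = 1.00 by the authors' deposited table). The gene lies on the Z chromosome, of which hens carry 1 copy, and the 481 Z chromosome genes with a mean of at least 1 RPKM had a median log2 fold change of -0.02. The part of the W chromosome libraries in the value of FST was not tested. The other antagonists were all on the higher side, with small or uncertain values. BMPER, which binds BMPs, was at 3.07 RPKM at high and an implied 2.99 at low density (log2 fold change 0.04, SE 0.18), and CHRD, chordin, at 1.31 and 1.28 (0.03, SE 0.17). FSTL3, a relative of follistatin, was at 0.528, 0.655, 0.436 and 0.903 RPKM in high density libraries 1 to 4 (log2 fold change 0.15, SE 0.45), with a mean of 0.779 without libraries 1 and 3 against 0.631 with them. NOG, noggin, had 18 reads in all at 0.0178, 0, 0.240 and 0.126 RPKM in the same libraries (log2 fold change 0.92, SE 1.00).

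All 4 ID genes were lower at high density, and none was called. They code for inhibitors of DNA binding, are direct targets of the BMP SMADs in mammals, and had a median log2 fold change of -0.20. By the authors' deposited table, ID3 was at 66.1 RPKM at low and an implied 56.6 at high density (log2 fold change -0.23, SE 0.15, p = 0.125), ID2 at 10.5 and 9.25 (-0.18, SE 0.11, p = 0.111) and ID1 at 8.72 and 7.87 (-0.15, SE 0.16, p = 0.343). The low density libraries 1 to 4 of ID1 were at 9.17, 7.94, 10.7 and 7.09 RPKM, so that its implied high density mean lay inside their range. ID4 (chr2:59731678-59733512, minus strand) alone passed an unadjusted p of 0.05, with 6.30, 4.81, 5.25 and 6.43 RPKM in those libraries, from 881 reads, and an implied 4.11 at high density. Every low density library of ID4 lay above that mean, and its log2 fold change was -0.47 (SE 0.20, p = 0.0203, adjusted p = 0.826 by the authors' deposited table). The ID genes are short, and 66.4% of the 1085 genes at 1 RPKM or more and with a span no longer than theirs were lower as well, at a median of -0.09 on the log2 scale. The part of gene length in the ID values was not tested. BMP2K, a kinase that is a member by its name, had 10.3 RPKM at low density and a log2 fold change of -0.17 (SE 0.12).

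**Figure D3:**
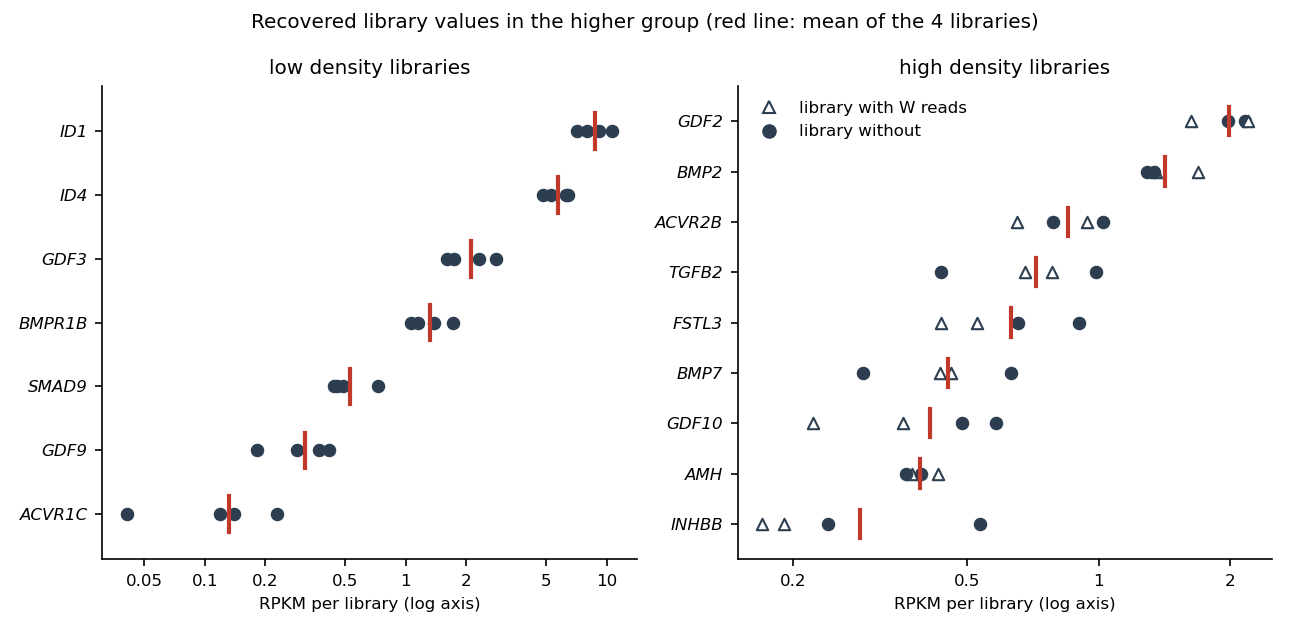
RPKM in each library (x axis, log axis) of the 16 members with at least 30 recovered reads, 7 in the low density libraries (left) and 9 in the high density libraries (right); red lines are means of 4 libraries and open triangles are the high density libraries with W chromosome reads. The libraries of AMH, from 0.363 to 0.430 RPKM, lie closest together on the right, and 1 library of INHBB lies at 0.536, apart from the others.

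The 58 other genes of these pathways with a value held no call. They came from lists of ligand activators, coreceptors, further ligands, further antagonists, intracellular regulators and targets. Of the 58 genes 23 were higher and 35 lower, and their median log2 fold change was -0.04. At an unadjusted p of 0.05, 3 passed. Over all genes with a value, 5.58% passed that limit and 0.273% were called. CYR61, a matrix protein that TGF-beta among other signals turns on, was higher, at 8.07 RPKM at high and an implied 5.17 at low density (log2 fold change 0.64, SE 0.17, adjusted p = 0.0726 by the authors' deposited table). WFIKKN1, a protein that binds GDF8 and GDF11 in mammals, was lower, with 0.233, 1.03, 0.864 and 1.24 RPKM in low density libraries 1 to 4 and an implied 0.408 at high density (log2 fold change -1.05, SE 0.47, p = 0.0277 by the authors' deposited table). Library 1 of that group lay below the implied high density mean. LEMD3, a protein of the nuclear membrane that binds SMADs, had a log2 fold change of -0.32 (p = 0.0347 by the authors' deposited table).

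The strongest genes of those lists showed small differences, apart from the 1 further ligand with a value. That gene, LEFTY2, was weak, at 0.0634 RPKM at high density (log2 fold change 0.39, SE 1.03). The collagen gene COL3A1 (80.2 RPKM at low density) had a log2 fold change of -0.26 and COL1A2 (33.4 RPKM) one of -0.26. FURIN, a protease that matures the ligands, had a log2 fold change of 0.10 and HTRA1 one of -0.14. Those of the decoys and coreceptors DCN and BAMBI were 0.00 and 0.09. Among further antagonists FSTL1 was at -0.15 and NBL1 at -0.15, and among intracellular regulators FKBP1A was at -0.14 and PPM1A at -0.10. None of these had an unadjusted p under 0.05.

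In bulk liver, fewer cells of a type and less RNA per cell cannot be told apart, so the markers of liver cell types are given beside these values. Hepatocyte markers such as ALB and APOA1 were at 36025 and 12425 RPKM, the 2 highest levels of their list, with log2 fold changes of -0.05 and -0.05, and none of the 8 passed an unadjusted p of 0.05. Of 10 stellate cell and fibroblast markers 8 were lower, with 258 RPKM in sum at high against 286 at low density, and POSTN (-0.40) and ACTA2 (-0.25) passed an unadjusted p of 0.05. DCN and COL3A1 were the strongest of that list. The 9 endothelial markers, led by CDH5 (-0.09) and STAB1 (0.00), had a median of 0.00. Every one of 6 macrophage markers (MARCO -0.20 and C1QB -0.04 the strongest), 5 cholangiocyte markers (KRT7 -0.40, EPCAM -0.27 and KRT18 -0.02) and 5 markers of T and NK cells was lower. Of the cholangiocyte markers, KRT7 and EPCAM passed an unadjusted p of 0.05. The T and NK cell markers summed to 42.4 RPKM at high and 59.6 at low density, and GNLY (-0.58, adjusted p = 0.0396 by the authors' deposited table) was called, while CD247 (-0.60) and CD3E (-0.43) passed an unadjusted p of 0.05 and CD3D (-0.35) did not.

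Heterophil and erythroid markers had values on the higher side, and none was called. The 4 heterophil markers AvBD1, CATHL1, CATHL2 and S100A9 had log2 fold changes from 0.87 to 1.08 and summed to 25.2 RPKM at high against 12.7 at low density, each with an unadjusted p under 0.05. The 4 erythroid markers summed to 412 RPKM against 288, and of these HBBA (0.64) and SLC4A1 (0.67) passed an unadjusted p of 0.05, while HBA1 (0.43) and ALAS2 (0.11) did not. No marker matched in the table was at 0. The part of these cell types in the values of INHBE, FST, BMPR2, SMAD1 and the ID genes was not tested.

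**Figure D4:**
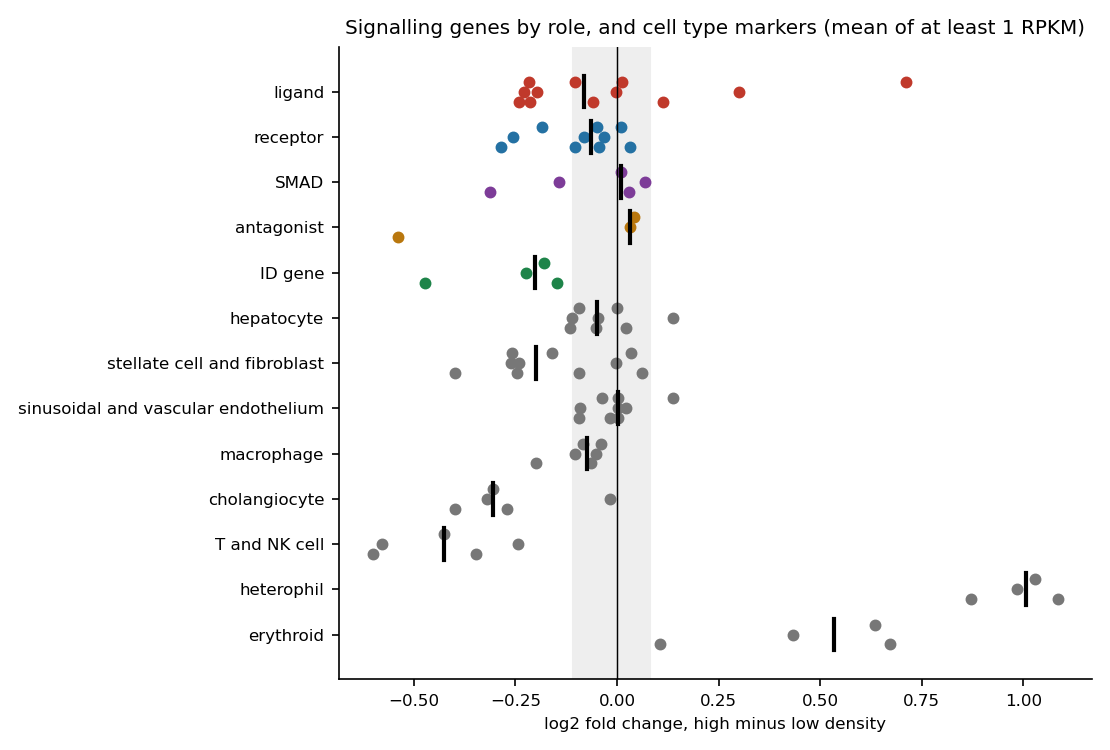
Log2 fold change (x axis, high minus low density) of members by role (coloured) and of cell type markers (grey), all with a mean of at least 1 RPKM; black ticks are medians and the shaded band spans the quartiles of all 10867 genes of that level, -0.11 to 0.08. The ID genes, from -0.47 to -0.15, lie left of the band, but ID1, ID2 and ID3 lie inside the quartiles of the 1085 genes as short as they are, -0.25 to 0.06. The T and NK cell markers lie left of the band, and the heterophil and erythroid markers lie to its right.

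The precision of the comparison set what could be called. For the 35 members with a mean of at least 1 RPKM the median SE was 0.15 (0.10 to 0.28), and at that error a log2 fold change of about 0.60, or 1.52-fold, would have been called. For 22 of them the 95% interval of the log2 fold change lay within 0.5 of 0, and for 33 within 1. For the 17 members below 1 RPKM the median SE was 0.54, and a member with that error would have had to differ by 4.28-fold. Their SEs ran from 0.24 for TGFB2 to 2.25 for GDF7, so the size that could be called differed widely among them.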

How the data were processed

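Liver RNA of 8 pooled libraries was sequenced on an Illumina HiSeq, per the labels' protocols. The data are the authors' deposited table of 1 comparison, which per the file headers gives the higher group mean, log2 and signed fold changes, p-values and their adjusted forms, and which holds 0 columns of values per library. Coordinates are on GRCg6a, the build in the submitters' processing notes. No source used here gives the aligner, counter, normalization or test. The planned count test could not be run, so calls rest on the deposited adjusted p under 0.05, a Benjamini-Hochberg adjustment over all 23613 rows (largest difference on recomputing 2.4e-05).

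The header names no unit for the mean. In genes with 1 read, the RPKM scaling constant divided by the 4 libraries, the deposited mean and the gene span gave a whole library total. This shows the mean to be RPKM, and 4 totals per group were recovered. Library reads of the higher group were then recovered for weak genes: a solution had to give the deposited mean exactly, from whole reads and a whole length of at most 8000 bases, with at most 0.005 chance matches expected per group searched. Of 39 members searched 23 were solved, with 0.206 chance matches expected in all. Of 200 test genes 200 were solved, 199 of them in the group that the log2 fold change gives or with a log2 fold change within 0.1 of 0. In 141 of them the length found divided the gene span exactly. The test genes were chosen to be short and weak, so they do not cover members with more reads, such as ID4 with 881. The exact match and this limit were set after a looser search had given the members some implausible solutions, and the order of summation was found on members with few reads. The higher group of other members was taken from the sign of the log2 fold change. The implied SE is the size of the log2 fold change over the normal deviate of its two-sided p, which assumes a Wald test. Calculations used Python 3.11.15, numpy 2.4.6, pandas 2.3.3 and scipy 1.17.1 and were tested on simulated data.

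Members with adjusted or unadjusted p under 0.05, or among the 3 strongest of their role, have levels for both groups, the log2 fold change and its SE. Those with unadjusted p under 0.05 also have p and adjusted p. For other lists, genes with unadjusted p under 0.05 and the 2 strongest are named. Members and lists were chosen with earlier results of these data known. No sequence is shown.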

Additional observations from a re-analysis of the deposited data

Results flagged for a closer look

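Among the 23 members with recovered libraries, 4 had 1 library far from the other libraries of its group. Chance marks about 1 in 20 groups whose reads are spread over the libraries, but a gene with reads in a single library, as BMP3 and GDF8 are, is always marked. BMP2 had 1 high density library at 1.69 RPKM, with the next at 1.35. SMAD9 had 1 low density library at 0.728 RPKM, with the next at 0.487. BMP3 was seen in 1 low density library, at 0.0394 RPKM from 2 reads, and GDF8 in 1, at 0.0297 RPKM from 1 read, with the other libraries of the group at 0.

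Reads of the W chromosome gene SPIN1W, which is outside the comparison of the members, appeared in high density libraries 1 and 3 (286 and 151 reads), above the 3 and 0 reads of libraries 2 and 4. Every library is labelled male.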

How the results depend on the processing

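The count of 1 member called from the authors' deposited table stayed at 1 when p-values were adjusted over the genes with a mean above 0 (INHBE adjusted p = 0.0117) or of at least 1 RPKM (0.00791). It fell to 0 members at an adjusted p under 0.01 and 0 by the deposited Bonferroni adjustment, where INHBE had 0.378; these limits left 20 and 16 genes of the whole table. The median log2 fold change of the SMAD genes changed sign, from -0.07 to 0.0106, among those of at least 1 RPKM, since SMAD9 falls below that level. The medians of the other roles and of all members (-0.05, -0.06, -0.10 and, without members that overlap another gene model, -0.08) kept their sign at each minimum tried. After subtracting the median of genes of at least 1 RPKM, 30 members were lower instead of 31, and 29 of the 47 members without an overlapping model were lower. Of the 12 members with recovered high density libraries, leaving out those with W chromosome reads moved the mean by over 1.5 times in GDF6 (0.0810 to 0.0478 RPKM) and NOG (0.0958 to 0.0629 RPKM). That alternative and the one on overlapping models were chosen after seeing the data. No paired analysis was possible because the deposited table holds no values per library for both groups; leaving out replicates, DESeq2 and other normalizations were not run for the same reason.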
